A study of Homo sapiens with 16 samples.

Results

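The insulin-like growth factor (IGF) axis was followed through its hormone-facing genes in cells of 2 human cancer types. Ishikawa cells come from an endometrioid adenocarcinoma and T-47D cells from a ductal carcinoma of the breast. The genes were taken by name: the ligand IGF2, the receptors IGF1R and INSR, the adaptors IRS1 and IRS2, and the binding proteins IGFBP2, IGFBP3, IGFBP4, IGFBP5 and IGFBP6. All 10 were found among the 26364 genes of the count tables. By the labels, both lines were deprived of hormones for 3 days. They were then exposed to 10 nM estradiol (E2) for 2, 4 or 8 h, or taken at 0 h with vehicle. Each line and time point had 2 replicates. No library is labelled as vehicle at 2, 4 or 8 h, so that E2 cannot be told apart from time or handling after 0 h. Poly(A) RNA was sequenced as directional libraries, 8 per line and 16 in all. Each model is a single established cell line, and nothing says whether replicates were separate cultures, so that p-values measure the spread between these libraries, which may be technical.

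IGF2, like the related IGF1, is a secreted ligand that activates the receptor tyrosine kinase IGF1R, and it also binds the insulin receptor INSR. Activated receptors phosphorylate the docking proteins IRS1 and IRS2, which recruit PI3 kinase and pass the signal to AKT and TOR. The IGFBPs are secreted proteins that hold IGFs outside the cell and can limit or prolong their access to the receptor, and proteases cut them to free the ligand. Several genes of this axis are known from breast cancer cells as estrogen-regulated, among them IRS1, IGF1R and IGFBP4.

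Libraries held 41177912 to 64148903 counts. Values are CPM, counts per 1000000 of a library size scaled by the trimmed mean of M-values (TMM), and are given for replicate 1 and then replicate 2. The known E2 targets GREB1 and PGR checked the treatment labels. GREB1 went from 8.45 and 9.29 CPM at 0 h to 24.2 and 31.4 CPM at 8 h in Ishikawa cells, and from 115 and 126 to 527 and 527 CPM in T-47D cells. PGR, the progesterone receptor gene, went from 1.34 and 0.974 to 13.2 and 18.0 CPM in Ishikawa cells and from 666 and 661 to 1341 and 1439 CPM in T-47D cells. All 5 epithelial markers were above 1 CPM in both lines. All 6 endometrial and Müllerian markers were above 1 CPM in Ishikawa and 1 of 6 in T-47D cells, whereas luminal breast markers passed in 6 of 9 and 9 of 9. One doubt touches every late Ishikawa value below. The 4 h and 8 h libraries of Ishikawa cells resembled each other across their time labels: the median absolute log2 difference over 15787 genes was 0.0892 between 4 h replicate 1 and 8 h replicate 2 and 0.0873 between 4 h replicate 2 and 8 h replicate 1, against 0.103 and 0.0973 between replicates of 4 h and of 8 h. The labels were kept, and each called late Ishikawa change of the 10 genes against 0 h is also given with these 4 libraries as 1 group. Changes from 2 h to 8 h were not fitted in that way.

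Genes of the axis changed against 0 h in both lines, but not in the same way. IGF1R, the receptor, and IGFBP4 rose in both lines. IRS2 and IGFBP5 fell in Ishikawa and rose in T-47D cells. IRS1 rose and IGFBP2 fell in T-47D cells, and IGFBP3 fell in both, from a high level in Ishikawa cells and from a few counts in T-47D cells. INSR and IGFBP6 passed the test against 0 h in neither line. IGF2 did not pass it in T-47D cells and was not tested in Ishikawa cells.

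A change was called where edgeR's quasi-likelihood test gave an adjusted p under 0.05 (Benjamini-Hochberg over all genes tested). In Ishikawa cells 9 of the 10 genes had enough counts to be tested, IGF2 being the exception. At 2 h, 2 of the 9 rose, where 2.61% of all 15787 genes tested rose and 1.74% fell. By edgeR 0 of the 9 fell at 2 h, 1 at an unadjusted p under 0.05, and 0 by DESeq2. At 4 h and at 8 h, 2 rose and 3 fell, beside 7.66% and 6.6% of all genes at 4 h, then 12% and 10.1% at 8 h. All 10 were tested in T-47D cells. At 2 h, 3 rose and 1 fell, beside 4.9% and 4.4% of 15594 genes. At 4 h, 5 rose and 1 fell (11.1% and 10.4% of all genes), and at 8 h 5 rose and 2 fell (15.4% and 14.3%). These shares describe 9 or 10 chosen genes and are no test of the group. Counting only whether both treated libraries lay beyond both 0 h libraries, 3 of the 10 genes were above and 5 below at 2 h in Ishikawa cells (23% and 27.1% of all genes), 2 and 4 at 4 h (26.3% and 27.9%), and 3 and 4 at 8 h (29.5% and 30.9%). For T-47D cells these numbers were 3 and 3 at 2 h (22.6% and 30.4%), 6 and 2 at 4 h (26.7% and 32.8%), and 5 and 2 at 8 h (27.4% and 32.6%).

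**Figure D1:**
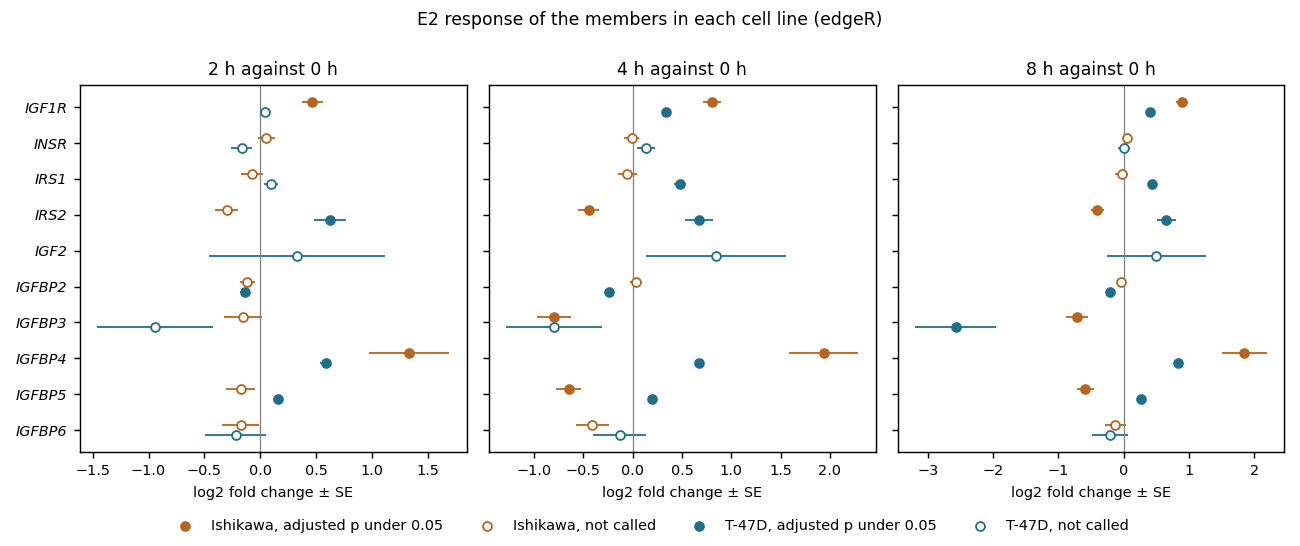
E2 response of the 10 genes as log2 fold change against 0 h (x axis, bars are ± SE; edgeR) at 2, 4 and 8 h, in Ishikawa cells (orange) and T-47D cells (blue), with filled points for an adjusted p under 0.05. The x axes differ between the 3 panels. IRS2 and IGFBP5 lie on opposite sides of 0 in the 2 lines, IGF1R and IGFBP4 on the same side, and IGF2 has no point in Ishikawa cells because it was not tested there.

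IGF1R, IGFBP4, IRS2 and IGFBP5, all called in both lines, are shown with the 250 bases upstream of their annotated start. They were chosen since IGF1R and IGFBP4 rose in both lines whereas IRS2 and IGFBP5 moved in opposite directions. IGFBP3, which fell, was also called in both lines, but its sequence is not printed. The sequences are from RefSeq (table on GRCh38.p14) and were found again, unchanged, at the GRCh37 positions given. They run 5′ to 3′ on the strand of the gene. Capitals mark the GC box GGGCGG, on either strand, and the TATA box TATAAA.
IGF1R, chr15:99191518-99191767, plus strand: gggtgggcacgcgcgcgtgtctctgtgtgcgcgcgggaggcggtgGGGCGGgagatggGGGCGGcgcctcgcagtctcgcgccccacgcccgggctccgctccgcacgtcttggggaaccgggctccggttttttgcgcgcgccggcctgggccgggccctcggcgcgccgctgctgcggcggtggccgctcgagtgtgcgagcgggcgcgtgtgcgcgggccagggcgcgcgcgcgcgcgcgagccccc
IGFBP4, chr17:38599452-38599701, plus strand: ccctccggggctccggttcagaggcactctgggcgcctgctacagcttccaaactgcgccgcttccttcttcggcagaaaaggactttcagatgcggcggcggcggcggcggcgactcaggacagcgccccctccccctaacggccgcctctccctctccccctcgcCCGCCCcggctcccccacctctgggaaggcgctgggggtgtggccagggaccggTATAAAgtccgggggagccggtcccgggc
IRS2, chr13:110438931-110439180, minus strand: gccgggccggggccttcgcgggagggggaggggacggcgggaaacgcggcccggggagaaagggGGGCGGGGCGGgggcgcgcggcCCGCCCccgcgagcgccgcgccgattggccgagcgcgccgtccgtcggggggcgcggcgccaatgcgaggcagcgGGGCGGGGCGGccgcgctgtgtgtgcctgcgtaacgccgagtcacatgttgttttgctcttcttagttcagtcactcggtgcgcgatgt
IGFBP5, chr2:217560273-217560522, minus strand: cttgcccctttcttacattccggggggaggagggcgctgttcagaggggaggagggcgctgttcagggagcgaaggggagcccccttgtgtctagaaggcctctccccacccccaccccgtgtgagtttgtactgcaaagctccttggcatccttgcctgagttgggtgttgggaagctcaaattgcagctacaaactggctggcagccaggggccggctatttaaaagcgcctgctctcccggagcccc

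The IGF1R sequence held 2 GC boxes, at -205 and -192 from the start, and no TATA box. The IGFBP4 sequence held 1 GC box at -83 and a TATA box at -29, the only TATA box among the 11 sequences of these genes in the table (3 for IGFBP2, none for IGF2 and 1 for each other gene), where 10.7% of all 35116 sequences of that length held one. The IRS2 sequence held 5 GC boxes, between -186 and -84, and the IGFBP5 sequence held none. A GC box was found in 9 of the 11 sequences and in 42.6% of all. The full estrogen response element, GGTCA and its reverse complement TGACC around 3 bases, was in 0 of the 11 and in 0.0399% of all, its arm GGTCA in 2 of the 11 (IGFBP2 and IGFBP3) and in 32.6% of all, and the AP-1 motif TGANTCA in 0 of the 11 and in 6.57% of all. GGTCA lies within the full element. Only the letters given were sought, so that variants of a motif, TATA-like elements included, were not counted. These matches describe the letters of a short window and say nothing of which factor acts there.

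Before E2, 9 of the 10 genes differed between the lines, as did most genes tested (39.5% higher and 42.4% lower in T-47D cells), so that the number says nothing particular about the axis. On CPM per kilobase of exon, which allows genes to be compared with each other, the order in Ishikawa cells at 0 h was IGFBP3 (236), IGFBP5 (57.5), IGFBP2 (24.8), INSR (4.36), IGFBP6 (3.72), IRS2 (2.93), IGF1R (1.98), IRS1 (1.93), IGFBP4 (0.279) and IGF2 (0.0193), where IGF1R and IRS1 overlapped between replicates. In T-47D cells the order was IGFBP5 (308), IGFBP4 (122), IGFBP2 (55.4), IGF1R (12.2), IRS1 (5.20), IGFBP6 (1.31), INSR (1.02), IRS2 (0.389), IGFBP3 (0.110) and IGF2 (0.0207), where IGFBP6 and INSR overlapped. IGFBP3 ranked 77 among 14378 genes in Ishikawa cells on this scale, and IGFBP5 ranked 60 among 14086 in T-47D cells. The order was the same with the length of the longest transcript.

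At 0 h, 5 of the 10 genes were higher and 4 lower in T-47D than in Ishikawa cells, among 17090 genes tested over the 16 libraries. As log2 differences (T-47D minus Ishikawa) IGFBP4 was higher by 8.76 ± 0.16 (SE, adjusted p = 7.93e-21), IGF1R by 2.62 ± 0.074 (SE, adjusted p = 9.73e-18), IGFBP5 by 2.42 ± 0.12 (SE, adjusted p = 6.32e-14), IRS1 by 1.43 ± 0.082 (SE, adjusted p = 1.28e-12) and IGFBP2 by 1.16 ± 0.056 (SE, adjusted p = 9.28e-14) in T-47D cells. IGFBP3 differed by -11.05 ± 0.29 (SE, adjusted p = 3.4e-18), IRS2 by -2.91 ± 0.12 (SE, adjusted p = 3.51e-15), INSR by -2.09 ± 0.077 (SE, adjusted p = 8.08e-16) and IGFBP6 by -1.50 ± 0.23 (SE, adjusted p = 4.55e-06), all lower in T-47D cells. IGF2 differed by 0.073 ± 0.85 (SE, adjusted p = 0.939). Receptor and adaptor pairs stood in opposite order in the lines. IGF1R was 0.455 ± 0.0270 (SD, n = 2) times INSR per kilobase in Ishikawa cells and 11.9 ± 0.740 times in T-47D cells, and IRS1 was 0.656 ± 0.0334 times IRS2 in Ishikawa cells and 13.3 ± 0.564 times in T-47D cells. Line, culture and library preparation cannot be told apart in this contrast.

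**Figure D2:**
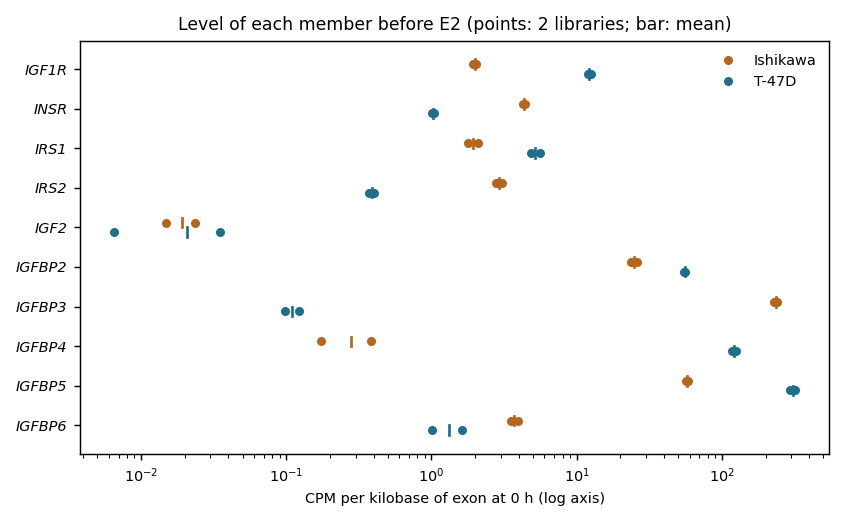
Level of the 10 genes before E2, as CPM per kilobase of exon (x axis, log scale); points are the 2 libraries of each line and bars their mean. IGFBP3 and IGFBP4 lie furthest apart between Ishikawa cells (orange) and T-47D cells (blue), and IGF2 lies lowest in both.

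IGF2, the ligand, was close to the floor in both lines. Its counts in Ishikawa cells were 5 and 8 at 0 h, 1 and 9 after 2 h, 9 and 4 at 4 h, then 7 and 5 at 8 h, and in T-47D cells, in the same order, 2 and 10, then 6 and 10, then 21 and 9, then 13 and 7. The groups overlapped at every time point. Treated over 0 h libraries, the ratio of summed counts per depth was 0.881 (95% exact interval 0.455 to 1.81) in Ishikawa cells and 1.52 (0.814 to 3.09) in T-47D cells, where the interval covers counting error only. A change of IGF2 was therefore not detectable at this depth. Over all 8 libraries of each line, T-47D cells held 78 counts and Ishikawa cells 48, a ratio of 1.62 (1.12 to 2.37). Most low counts in the tables were even, and with the counts divided by 2 this interval was 0.951 to 2.82 and no longer excluded equal levels. In hg19, IGF2 lies at chr11:2150342-2179621 on the minus strand. The overlapping readthrough gene INS-IGF2, the antisense IGF2-AS and insulin itself, INS, were at 0 counts in all 16 libraries, which allows up to 3 counts in each. How reads shared by overlapping genes were counted is not stated, so that low or 0 counts at these genes need not mean absent transcripts. H19, the imprinted noncoding gene next to IGF2, held 2 to 11 counts per library in Ishikawa cells. T-47D cells had it at 0.768 and 1.12 CPM at 0 h and 1.89 and 1.92 CPM at 8 h, a log2 fold change of 1.03 ± 0.26 (SE, adjusted p = 0.00587) that missed the threshold without T-47D 0 h replicate 1 (0.78, adjusted p = 0.0668).

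**Figure D3:**
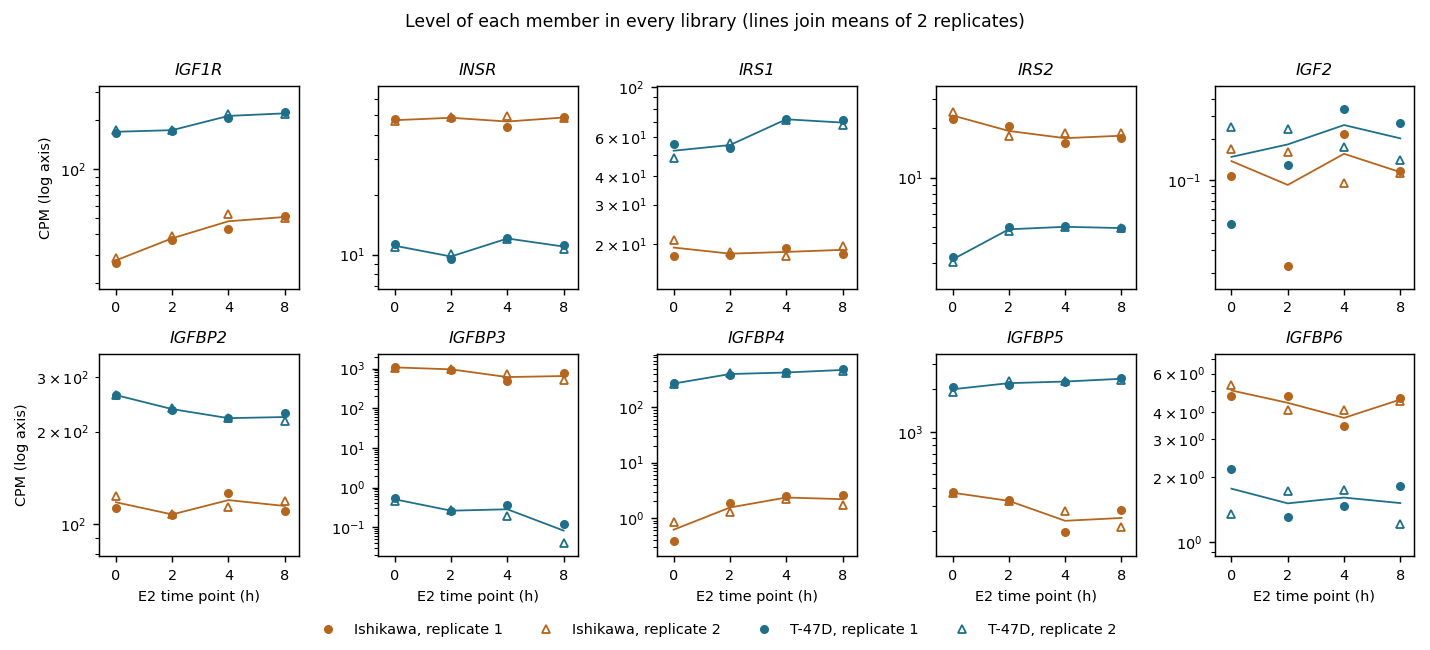
CPM (y axes, log scale, each with its own range) of the 10 genes by E2 time point (x axis, h), with filled circles for replicate 1, open triangles for replicate 2 and lines through the means, in Ishikawa cells (orange) and T-47D cells (blue). IGF1R climbs in both lines, IRS2 falls in Ishikawa and climbs in T-47D cells, and the late IGFBP3 and IGFBP5 values of Ishikawa cells split between replicates.

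IGF1R, the tyrosine kinase receptor for IGF1 and IGF2 (chr15:99191768-99507759, plus strand), rose in both lines. Gene positions are from GENCODE on GRCh37 (hg19), and SYNM-AS1 overlaps IGF1R on the opposite strand. In Ishikawa cells it was at 26.8 and 28.5 CPM at 0 h, 36.8 and 38.8 after 2 h, 43.0 and 53.1 at 4 h, then 51.8 and 50.4 at 8 h. Every treated library was above both 0 h libraries. Its log2 fold change was 0.47 ± 0.090 (SE, adjusted p = 0.0055) at 2 h, 0.81 ± 0.090 (SE, adjusted p = 2.12e-05) at 4 h and 0.89 ± 0.090 (SE, adjusted p = 7.27e-06) at 8 h, with 0.85 for the late libraries as 1 group, and the 8 h level was above the 2 h level by 0.42 ± 0.088 (SE, adjusted p = 0.0187). In T-47D cells it was at 166 and 174 CPM at 0 h, 173 and 175 after 2 h, 208 and 218 at 4 h, then 224 and 218 at 8 h. The 2 h libraries overlapped the 0 h libraries, with a log2 fold change of 0.045 ± 0.045 (SE, adjusted p = 0.608), and the later ones were higher, by 0.34 ± 0.045 (SE, adjusted p = 2.62e-05) and 0.40 ± 0.045 (SE, adjusted p = 2.52e-06). The rise was thus called from 2 h in Ishikawa and from 4 h in T-47D cells. The response of T-47D cells minus that of Ishikawa cells was, in log2, -0.40 ± 0.10 (SE, adjusted p = 0.0286) at 2 h, -0.46 ± 0.10 (SE, adjusted p = 0.00659) at 4 h and -0.50 ± 0.10 (SE, adjusted p = 0.0021) at 8 h. Without Ishikawa 2 h replicate 2 the 2 h rise in Ishikawa cells missed the threshold (0.43, adjusted p = 0.0868). The 2 h difference between the lines was lost without Ishikawa 0 h replicate 1, Ishikawa 2 h replicate 2, T-47D 0 h replicate 2, T-47D 2 h replicate 1 or T-47D 2 h replicate 2, with adjusted p from 0.0583 to 0.177, and the Ishikawa change from 2 h to 8 h without 2 h replicate 1, 2 h replicate 2 or 8 h replicate 2, with adjusted p of 0.219, 0.128 and 0.0728.

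INSR, the insulin receptor (chr19:7112266-7294425, minus strand), passed the test at no time point. In Ishikawa cells it ranged from 43.5 to 49.5 CPM over the 8 libraries and in T-47D cells from 9.54 to 12.1 CPM. Its log2 fold changes lay between -0.012 and 0.055 in Ishikawa and between -0.17 and 0.13 in T-47D cells, and none passed the test (smallest adjusted p 0.321). The ratio of IGF1R to INSR per kilobase went from 0.455 ± 0.0270 at 0 h to 0.605 ± 0.0168 at 2 h, 0.802 ± 0.0460 at 4 h and 0.815 ± 0.0114 at 8 h in Ishikawa cells (SD, n = 2). For T-47D cells it went from 11.9 ± 0.740 to 13.8 ± 0.364, 13.7 ± 0.551 and 15.6 ± 0.172.

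IRS1, a docking protein for both receptors (chr2:227596028-227664536, minus strand), rose in T-47D cells. There it was at 55.7 and 48.4 CPM at 0 h, 53.8 and 56.6 after 2 h, 72.3 and 71.4 at 4 h, then 71.3 and 67.6 at 8 h. The 2 h libraries overlapped those of 0 h, with a log2 fold change of 0.10 ± 0.062 (SE, adjusted p = 0.397), and the 4 h and 8 h libraries lay above, with 0.48 ± 0.061 (SE, adjusted p = 1.65e-05) and 0.44 ± 0.061 (SE, adjusted p = 2.96e-05). From 2 h to 8 h it rose by 0.34 ± 0.061 (SE, adjusted p = 0.000738). In Ishikawa cells it ranged from 17.7 to 20.8 CPM, every treated group overlapped 0 h, and the log2 fold changes were -0.074, -0.055 and -0.031 (smallest adjusted p 0.754). The response was larger in T-47D cells by 0.54 ± 0.11 (SE, adjusted p = 0.00518) at 4 h and 0.46 ± 0.11 (SE, adjusted p = 0.0107) at 8 h. The 8 h difference missed the threshold without Ishikawa 0 h replicate 2 (0.36, adjusted p = 0.0727), Ishikawa 8 h replicate 1 (0.38, adjusted p = 0.0795) or T-47D 0 h replicate 2 (0.37, adjusted p = 0.0662).

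IRS2, the other docking protein (chr13:110405042-110438930, minus strand), is overlapped on the opposite strand by an unnamed gene. Whether the counting used strand is not stated. IRS2 went in opposite directions in the lines. T-47D cells had it at 3.30 and 3.05 CPM at 0 h, 4.98 and 4.71 after 2 h, 5.05 and 4.98 at 4 h, then 4.94 and 4.92 at 8 h. All 6 treated libraries lay above both 0 h libraries, with log2 fold changes of 0.62 ± 0.14 (SE, adjusted p = 0.00707), 0.67 ± 0.14 (SE, adjusted p = 0.00181) and 0.65 ± 0.14 (SE, adjusted p = 0.00156) and a change from 2 h to 8 h of 0.033 ± 0.13 (SE, adjusted p = 0.908). In Ishikawa cells it was at 22.9 and 24.9 CPM at 0 h, 20.6 and 17.8 after 2 h, 16.2 and 18.6 at 4 h, then 17.4 and 18.6 at 8 h. All 6 treated libraries lay below both 0 h libraries, with -0.30 ± 0.10 (SE, adjusted p = 0.124), -0.45 ± 0.10 (SE, adjusted p = 0.00844) and -0.41 ± 0.10 (SE, adjusted p = 0.01), and -0.43 for the late libraries as 1 group. The responses of the lines differed by 0.94 ± 0.16 (SE, adjusted p = 0.00113), 1.13 ± 0.16 (SE, adjusted p = 7.72e-05) and 1.06 ± 0.16 (SE, adjusted p = 0.00014), and this held with each library left out in turn. Leaving out 1 library ended single calls. This was so for the Ishikawa 4 h call without 0 h replicate 2 (-0.39, adjusted p = 0.0863) or 4 h replicate 1 (-0.35, adjusted p = 0.11), the Ishikawa 8 h call without 0 h replicate 2 (-0.35, adjusted p = 0.0976) or 8 h replicate 1 (-0.35, adjusted p = 0.068), and the T-47D 2 h call without 0 h replicate 2 (0.58, adjusted p = 0.0543) or 2 h replicate 1 (0.59, adjusted p = 0.0635). The ratio of IRS1 to IRS2 per kilobase went from 0.656 ± 0.0334 at 0 h to 0.853 ± 0.00440 at 8 h in Ishikawa cells, and from 13.3 ± 0.564 to 9.29 ± 0.703 at 2 h and 11.5 ± 0.402 at 8 h in T-47D cells (SD, n = 2).

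IGFBP4 (chr17:38599702-38613977, plus strand), a binding protein mostly described as an inhibitor of IGF action, rose in both lines from very different levels. In T-47D cells it was at 278 and 260.3 CPM at 0 h, 388 and 412 after 2 h, 427 and 426 at 4 h, then 502 and 447 at 8 h. No treated library overlapped 0 h, and the log2 fold changes were 0.58 ± 0.050 (SE, adjusted p = 1.58e-07), 0.68 ± 0.050 (SE, adjusted p = 1.72e-08) and 0.84 ± 0.050 (SE, adjusted p = 7.28e-10), with a further rise from 2 h to 8 h of 0.25 ± 0.049 (SE, adjusted p = 0.00151) that missed the threshold without 2 h replicate 1 (0.20, adjusted p = 0.0585). In Ishikawa cells it was near 1 CPM, at 0.382 and 0.847 at 0 h, 1.83 and 1.26 after 2 h, 2.47 and 2.21 at 4 h, then 2.66 and 1.72 at 8 h. The counts behind these values were 18 and 40 at 0 h and 160 and 77 at 8 h, and in ratio the 0 h replicates differed from each other by more than those of any other time point. Every treated library was still above both of them, with log2 fold changes of 1.33 ± 0.36 (SE, adjusted p = 0.0474), 1.94 ± 0.35 (SE, adjusted p = 0.00161) and 1.85 ± 0.35 (SE, adjusted p = 0.00174), and 1.89 for the late libraries as 1 group. The 2 h call in Ishikawa cells ended without 0 h replicate 1 (0.88, adjusted p = 0.181), 2 h replicate 1 (1.05, adjusted p = 0.348), 2 h replicate 2 (1.59, adjusted p = 0.0589) or 4 h replicate 1 (1.33, adjusted p = 0.0519), and the change was 2.01 without 0 h replicate 2.

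The IGFBP4 response on the log2 scale was smaller in T-47D than in Ishikawa cells, and T-47D minus Ishikawa was -1.25 ± 0.29 (SE, adjusted p = 0.0126) at 4 h and -1.04 ± 0.29 (SE, adjusted p = 0.0261) at 8 h. Both differences depended on single libraries, of Ishikawa cells at 4 h and of both lines at 8 h. At 4 h the difference was -1.92 without 0 h replicate 2 and missed the threshold without 0 h replicate 1 (-0.81, adjusted p = 0.138) or 4 h replicate 1 (-1.18, adjusted p = 0.0616) of Ishikawa cells. At 8 h it was -1.71 without Ishikawa 0 h replicate 2 and missed the threshold without Ishikawa 0 h replicate 1 (-0.61, adjusted p = 0.213), Ishikawa 8 h replicate 1 (-0.68, adjusted p = 0.228), T-47D 0 h replicate 1 (-0.99, adjusted p = 0.0551) or T-47D 8 h replicate 2 (-0.96, adjusted p = 0.0501).

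IGFBP3 (chr7:45951844-45961473, minus strand), the main carrier of IGFs in blood, fell in Ishikawa cells, where it was the most abundant of the 10 genes. It was at 1102 and 1052 CPM at 0 h, 947 and 973 after 2 h, 482 and 744 at 4 h, then 791 and 512 at 8 h. All treated libraries lay below both 0 h libraries. Within each late time point 1 library was far lower than its replicate, 4 h replicate 1 and 8 h replicate 2, which resembled each other across labels. The log2 fold change was -0.15 ± 0.17 (SE, adjusted p = 0.714) at 2 h, -0.80 ± 0.17 (SE, adjusted p = 0.00543) at 4 h and -0.72 ± 0.17 (SE, adjusted p = 0.00761) at 8 h, and -0.76 for the late libraries as 1 group. DESeq2 gave the same sizes with adjusted p of 0.0547 and 0.0758 at 4 h and 8 h. The 4 h call also ended without 0 h replicate 2 (-0.84, adjusted p = 0.0585) or 4 h replicate 1 (-0.53, adjusted p = 0.0626), and the 8 h call without 0 h replicate 1 (-0.68, adjusted p = 0.0537), 0 h replicate 2 (-0.76, adjusted p = 0.0699) or 8 h replicate 2 (-0.45, adjusted p = 0.0558).

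In T-47D cells IGFBP3 was almost silent, with counts of 24 and 18 at 0 h, 12 and 11 after 2 h, 23 and 10 at 4 h, then 6 and 2 at 8 h. Every treated group lay below 0 h in CPM. Summed over replicates and set per depth, the level at 8 h was 0.161 of that at 0 h (95% exact interval 0.0652 to 0.347), at 4 h 0.575 (0.353 to 0.929) and at 2 h 0.513 (0.295 to 0.873). The intervals cover counting error only, and with the counts divided by 2 they were 0.0401 to 0.476 at 8 h, 0.272 to 1.12 at 4 h and 0.214 to 1.06 at 2 h. The fitted log2 fold change was -2.58 ± 0.62 (SE, adjusted p = 0.00412) at 8 h and missed the threshold without 8 h replicate 2 (-2.00, adjusted p = 0.0655), and those at 2 h and 4 h had adjusted p of 0.303 and 0.279. The difference of the responses between the lines was -1.86 ± 1.15 (SE, adjusted p = 0.369) at 8 h.

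IGFBP5 (chr2:217536828-217560272, minus strand), a binding protein that also attaches to extracellular matrix, was the most abundant of the genes in T-47D cells and moved in opposite directions in the lines. T-47D cells had it at 2074 and 1912 CPM at 0 h, 2133 and 2270.4 after 2 h, 2242 and 2278 at 4 h, then 2411 and 2317 at 8 h. The rise was small but without overlap, with log2 fold changes of 0.16 ± 0.038 (SE, adjusted p = 0.0123), 0.19 ± 0.038 (SE, adjusted p = 0.00122) and 0.27 ± 0.038 (SE, adjusted p = 3.47e-05). Its 2 h call ended without 0 h replicate 2 (0.11, adjusted p = 0.116) or 2 h replicate 2 (0.11, adjusted p = 0.252). In Ishikawa cells it was at 375 and 368 CPM at 0 h, 328 and 323 after 2 h, 196 and 275 at 4 h, then 280.1 and 213 at 8 h. The 6 treated libraries all lay below 0 h, and 4 h replicate 1 and 8 h replicate 2 were again the lowest. The log2 fold change was -0.18 ± 0.13 (SE, adjusted p = 0.527) at 2 h, -0.65 ± 0.13 (SE, adjusted p = 0.00305) at 4 h and -0.59 ± 0.13 (SE, adjusted p = 0.0044) at 8 h, and -0.62 for the late libraries as 1 group. It was -0.43 at 4 h without 4 h replicate 1, and the 8 h call ended without 0 h replicate 2 (-0.61, adjusted p = 0.0514). The lines differed by 0.86 ± 0.16 (SE, adjusted p = 0.0013) at 4 h and 0.85 ± 0.16 (SE, adjusted p = 0.000971) at 8 h, with every library left out in turn as well. DIRC3-AS1 overlaps IGFBP5 on the other strand, and whether the counting used strand is not stated.

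IGFBP2 (chr2:217497551-217529159, plus strand), a binding protein often raised in tumours, lies next to IGFBP5, with 7668 bases between their ends. In T-47D cells it fell from 264 and 262 CPM at 0 h to 235 and 238 after 2 h, 222 and 221 at 4 h, then 229 and 216 at 8 h. All 6 treated libraries lay below both 0 h libraries, with log2 fold changes of -0.14 ± 0.041 (SE, adjusted p = 0.0403), -0.24 ± 0.041 (SE, adjusted p = 0.00039) and -0.22 ± 0.041 (SE, adjusted p = 0.000556), so that the neighbours moved in opposite directions in this line. The 2 h call was the weakest, since it ended without either 0 h, either 2 h or either 4 h library, with adjusted p from 0.102 to 0.356. In Ishikawa cells IGFBP2 ranged from 107 to 126 CPM and passed the test at no time point (smallest adjusted p 0.4). The difference between the lines was -0.26 ± 0.079 (SE, adjusted p = 0.06) at 4 h, and DESeq2, median-of-ratios scaling, no low-count filter and a filter of 10 counts each put it under 0.05, with adjusted p of 0.00697, 0.0303, 0.0143 and 0.042, while it was up to 0.225 with 1 library left out.

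IGFBP6 (chr12:53491220-53496129, plus strand), which prefers IGF2 over IGF1, ranged from 3.42 to 5.29 CPM in Ishikawa cells and from 1.21 to 2.19 CPM in T-47D cells. The Ishikawa treated libraries lay below those of 0 h at each time point, where 27.1% of all genes did so at 2 h, 27.9% at 4 h and 30.9% at 8 h. The log2 fold changes were -0.18, -0.41 and -0.13, and the smallest adjusted p was 0.114 at 4 h. In T-47D cells every treated group overlapped 0 h.

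Summed over IGFBP2 to IGFBP6, binding protein transcripts stood in Ishikawa cells at 1595 and 1549 CPM at 0 h, 1388 and 1409 after 2 h, 809 and 1138 at 4 h, then 1189 and 849 at 8 h. In T-47D cells the sum went from 2619 and 2436 CPM to 2758 and 2923, 2893 and 2926, and 3144 and 2981. IGFBP3 made up 69.1% and 67.9% of the sum at 0 h in Ishikawa cells and 59.5% to 66.5% at 4 h and 8 h. IGFBP5 made up 79.2% and 78.5% of it at 0 h in T-47D cells, and IGFBP4 went there from 10.6% and 10.7% at 0 h to 14.8% and 14.5% at 4 h. These sums are of CPM, so that long transcripts weigh more, and they were not tested. In bulk RNA, fewer cells that express a gene and less RNA per cell cannot be told apart.

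Across the 10 genes the test of the difference between the lines passed at 2 h for IRS2 (1 gene more positive in T-47D cells, beside 1.4% of all 17090 genes) and IGF1R (1 more negative, beside 1.28%). At 4 h and at 8 h, 3 were more positive in T-47D cells (IRS1, IRS2 and IGFBP5, beside 3.21% and 5.32% of all genes) and 2 more negative (IGF1R and IGFBP4, beside 2.83% and 4.7%). With the late Ishikawa libraries as 1 group the same 5 genes were called against T-47D cells at 4 h and at 8 h. From 2 h to 8 h, 1 gene of 9 rose in Ishikawa cells, IGF1R, where 1.06% of all genes rose and 1.17% fell, and 3 of 10 rose in T-47D cells, IGF1R, IRS1 and IGFBP4, where 9.53% rose and 7.23% fell. By edgeR and by DESeq2 0 fell in either line, and 2 in Ishikawa and 1 in T-47D cells fell at an unadjusted p under 0.05. Over the 8 T-47D libraries, the genes most like IGF1R in log2 CPM among 10978 genes of at least 5 CPM were XPO5 (Pearson r 0.992), MDN1 (0.990) and TMEM120B (0.988), those most like IRS1 were TBC1D30 (0.978), WDR12 (0.977) and UTP6 (0.975), and those most like IGFBP4 were SEMA3G (0.995), SLC9A3R1 (0.994) and MANEAL (0.993). IRS1 and IGF1R had an r of 0.911, IGFBP4 and IGFBP5 one of 0.951. These describe 8 libraries that share 4 time points.

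Around these genes, the wider pathway was read from 4 lists. Of 9 other ligands, receptors and binding proteins, 5 were tested in Ishikawa and 4 in T-47D cells. By edgeR 0 were called at 2 h or 4 h in either line, as by DESeq2, and 1 had an unadjusted p under 0.05 at 4 h in each. At 8 h 1 of the 5 fell in Ishikawa cells and 2 of the 4 in T-47D cells, against 0 and 1 by DESeq2. Of all genes, 10.1% fell at 8 h in Ishikawa and 14.3% in T-47D cells. The median log2 fold change of the list was 0.023 and -0.22, beside -0.0088 and 0.0030 over all genes. The genes of this list named next were chosen after their values were seen. IGFBP1, a binding protein of the decidualising endometrium, had -1.70 ± 0.51 (SE, adjusted p = 0.0272) in Ishikawa cells, which missed the threshold without Ishikawa 0 h replicate 2 (-1.30, adjusted p = 0.256) or Ishikawa 8 h replicate 2 (-1.34, adjusted p = 0.175). IGFALS, the acid-labile subunit of the serum IGF complex, had -0.85 ± 0.31 (SE, adjusted p = 0.0447) in T-47D cells, lost without T-47D 0 h replicate 1, T-47D 2 h replicate 1, T-47D 2 h replicate 2, T-47D 8 h replicate 1 or T-47D 8 h replicate 2 (adjusted p 0.0533 to 0.279), and IGFBPL1 had -0.35 ± 0.12 (SE, adjusted p = 0.0332), lost without T-47D 0 h replicate 1 (-0.14, adjusted p = 0.471), T-47D 8 h replicate 1 (-0.37, adjusted p = 0.084) or T-47D 8 h replicate 2 (-0.32, adjusted p = 0.145). IGF2R, the clearance receptor for IGF2, had 0.023 ± 0.053 (SE, adjusted p = 0.796) in Ishikawa cells and -0.086 ± 0.041 (SE, adjusted p = 0.132) in T-47D cells at 8 h.

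Of 10 proteases of binding proteins and their inhibitors, 5 were tested in each line. In T-47D cells 2 of the 5 rose at all 3 time points, beside 4.9%, 11.1% and 15.4% of all genes at 2, 4 and 8 h. Both were stanniocalcins, secreted glycoproteins that inhibit the IGFBP4-cutting protease PAPPA. STC2 went from 147 and 147 CPM at 0 h to 503 and 551 after 2 h, 536 and 569.7 at 4 h, then 732 and 739 at 8 h, with 2.34 ± 0.049 (SE, adjusted p = 8.71e-16) at 8 h. STC1 went from 3.35 and 3.27 to 12.8 and 12.3 CPM at 8 h, with 1.95 ± 0.11 (SE, adjusted p = 2.77e-10). In Ishikawa cells edgeR called 1 of the 5 up at 4 h and at 8 h, STC2, while DESeq2 called 1 and 2. Of all genes, 7.66% rose there at 4 h and 12% at 8 h by edgeR. STC2 went from 239 and 243 CPM at 0 h to 281 and 290.3 at 8 h, with 0.25 ± 0.053 (SE, adjusted p = 0.00439), and STC1 stood at 4 to 19 counts per library with no call. The STC2 response was larger in T-47D cells by 2.09 ± 0.075 (SE, adjusted p = 2.94e-13) at 8 h. The median log2 fold change of the 5 at 8 h was 0.15 in Ishikawa and 0.18 in T-47D cells, beside -0.0088 and 0.0030 over all genes.

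Of 24 adaptors and phosphatases next to the receptors, 23 were in the tables. In Ishikawa cells edgeR called 0 of 23 at 2 h, where 4 had an unadjusted p under 0.05 and DESeq2 called 1, while 2 rose and 5 fell at 4 h, and 4 rose and 5 fell at 8 h, where 7.66% and 6.6% of all genes rose and fell at 4 h, and 12% and 10.1% at 8 h. Of 22 tested in T-47D cells, 2 rose and 2 fell at 2 h, 3 rose and 6 fell at 4 h, and 1 rose and 8 fell at 8 h, beside all-gene shares of 4.9% and 4.4%, then 11.1% and 10.4%, then 15.4% and 14.3%. The median log2 fold change at 8 h was 0.094 in Ishikawa and -0.12 in T-47D cells. GRB7, an adaptor of receptor tyrosine kinases, fell in both lines, with -0.75 ± 0.13 (SE, adjusted p = 0.00129) at 8 h in Ishikawa cells and -1.05 ± 0.10 (SE, adjusted p = 3.78e-07) in T-47D cells. Its relative GRB10, which inhibits insulin and IGF receptors, rose in T-47D cells by 0.59 ± 0.052 (SE, adjusted p = 1.28e-07) and had 0.13 ± 0.062 (SE, adjusted p = 0.161) in Ishikawa cells, and the responses differed by 0.46 ± 0.083 (SE, adjusted p = 0.000929) at 8 h.

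The docking protein GAB2 fell in Ishikawa cells, with -0.38 ± 0.077 (SE, adjusted p = 0.00278) at 8 h. In T-47D cells it was higher at 2 h by 0.22 ± 0.053 (SE, adjusted p = 0.0139), a call that ended without T-47D 0 h replicate 2 (0.23, adjusted p = 0.0534), T-47D 2 h replicate 1 (0.24, adjusted p = 0.0645) or T-47D 2 h replicate 2 (0.20, adjusted p = 0.136). By 8 h it was lower there, with -0.15 ± 0.054 (SE, adjusted p = 0.0416) against 0 h and -0.37 ± 0.053 (SE, adjusted p = 0.000109) against 2 h, and the first of these missed the threshold without T-47D 0 h replicate 1, T-47D 0 h replicate 2, T-47D 2 h replicate 1, T-47D 2 h replicate 2, T-47D 4 h replicate 1, T-47D 4 h replicate 2 or T-47D 8 h replicate 2 (adjusted p 0.072 to 0.22). Its relative GAB1 fell in T-47D cells at 2 h, with -0.44 ± 0.056 (SE, adjusted p = 2.2e-05), and in Ishikawa cells it had -0.37 ± 0.11 (SE, adjusted p = 0.029) at 4 h, which missed the threshold without Ishikawa 0 h replicate 1 (-0.22, adjusted p = 0.165), Ishikawa 4 h replicate 1 (-0.46, adjusted p = 0.0535) or Ishikawa 4 h replicate 2 (-0.29, adjusted p = 0.154) and, at -0.26, with the late libraries as 1 group. The adaptor SH2B1 fell at 8 h, with -0.42 ± 0.10 (SE, adjusted p = 0.00603) in Ishikawa cells and -0.26 ± 0.060 (SE, adjusted p = 0.00298) in T-47D cells, calls that ended without Ishikawa 0 h replicate 2 (-0.23, adjusted p = 0.0976) and T-47D 0 h replicate 2 (-0.18, adjusted p = 0.0719). The docking protein DOK4 fell in T-47D cells at 8 h, with -0.61 ± 0.11 (SE, adjusted p = 0.000264). In Ishikawa cells DOK4 had -0.27 ± 0.084 (SE, adjusted p = 0.0308) at 8 h, which missed the threshold without Ishikawa 0 h replicate 2 (-0.23, adjusted p = 0.171), Ishikawa 2 h replicate 1 (-0.27, adjusted p = 0.0537), Ishikawa 2 h replicate 2 (-0.27, adjusted p = 0.0519) or Ishikawa 8 h replicate 2 (-0.17, adjusted p = 0.285).

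Of 36 genes of PI3 kinase, AKT, TOR and FOXO, all were tested. In Ishikawa cells 1 rose and 2 fell at 2 h, 1 rose and 4 fell at 4 h, and 3 rose and 5 fell at 8 h. In T-47D cells 2 rose and 4 fell at 2 h, 5 rose and 7 fell at 4 h, and 3 rose and 7 fell at 8 h. In all, 22.2% of the list was called at 8 h in Ishikawa and 27.8% in T-47D cells. These are close to what the shares of all genes add up to (12% up with 10.1% down, and 15.4% up with 14.3% down). The 8 h counts thus set the list apart in neither line. Earlier shares of the list were 8.33% at 2 h and 13.9% at 4 h in Ishikawa cells. Of all genes, 2.61% rose and 1.74% fell there at 2 h, and 7.66% and 6.6% at 4 h. The T-47D list shares were 16.7% at 2 h, beside 4.9% and 4.4% of all genes, and 33.3% at 4 h, beside 11.1% and 10.4%. The list was thus called more often than all genes at 2 h in both lines and at 4 h in T-47D cells, which was not tested. The median log2 fold change of the list at 8 h was 0.046 in Ishikawa and -0.053 in T-47D cells, beside the same all-gene medians of -0.0088 and 0.0030. DEPTOR, an inhibitor of TOR, rose in both lines, at 8 h by 1.22 ± 0.093 (SE, adjusted p = 3.59e-07) in Ishikawa cells and 0.51 ± 0.077 (SE, adjusted p = 5.96e-05) in T-47D cells, and the difference between the lines was -0.71 ± 0.13 (SE, adjusted p = 0.0012). PIK3R3, a regulatory subunit of PI3 kinase, fell in both, with -0.44 ± 0.063 (SE, adjusted p = 0.000383) and -0.47 ± 0.044 (SE, adjusted p = 5.09e-07) already at 2 h. INPPL1, a lipid phosphatase that acts on the product of PI3 kinase, fell at 8 h, with -0.55 ± 0.092 (SE, adjusted p = 0.000731) in Ishikawa cells (-0.36 without 0 h replicate 2) and -0.33 ± 0.047 (SE, adjusted p = 3.23e-05) in T-47D cells. Among the Tribbles pseudokinases, TRIB1 fell in both lines at 4 h, with -0.64 ± 0.14 (SE, adjusted p = 0.00654) and -0.74 ± 0.089 (SE, adjusted p = 7.89e-06). TRIB3 fell in T-47D cells at 2 h, with -0.57 ± 0.055 (SE, adjusted p = 9.8e-07), and had -0.29 ± 0.084 (SE, adjusted p = 0.0738) in Ishikawa cells. Of the late Ishikawa calls named from the lists, GAB1 at 4 h was the 1 that ended with the late libraries as 1 group.

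**Figure D4:**
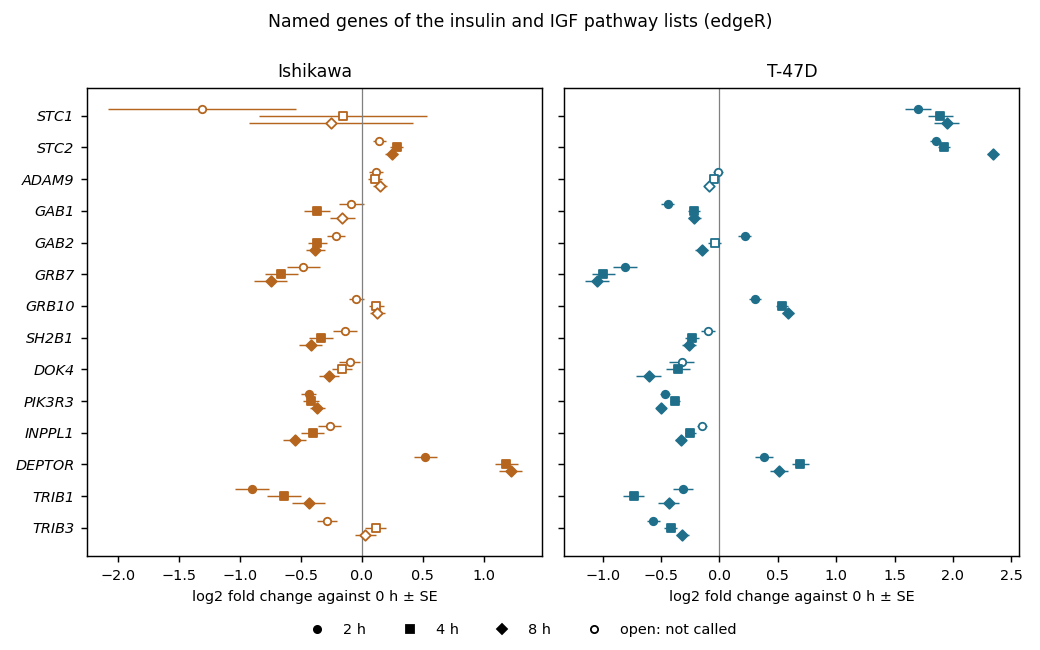
Log2 fold change against 0 h (x axis, ± SE, edgeR) of 14 named genes of the pathway lists at 2 h (circles), 4 h (squares) and 8 h (diamonds), with filled points for an adjusted p under 0.05, in Ishikawa cells (left) and T-47D cells (right). The x ranges of the panels differ. STC1 and STC2 lie furthest right in T-47D cells, DEPTOR furthest right in Ishikawa cells, and GRB7, PIK3R3, INPPL1 and SH2B1 lie left of 0 in both.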

How the data were processed

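Poly(A) RNA of 16 libraries was read from the deposited tables of raw counts per gene. By the labels and the study's methods, HISAT2 placed the authors' reads on hg19, SAMtools handled the alignments and featureCounts counted them over UCSC Known Genes. Versions, the strand setting and the treatment of read pairs are not given in the sources used here. Between 71.2% and 74.6% of the counts from 1 to 10 in each library were even, and dividing the counts by 2 was therefore tried. The labels give 3 days of hormone deprivation, whereas the study's cell culture methods give 5 days before estrogen treatment. The labels were followed here. No column was without a sample (0).

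Counts were fitted in R 4.3.3 with edgeR 4.0.16 (TMM, filterByExpr, glmQLFit, glmQLFTest, two-sided), per line over 8 libraries with 4 time points and no replicate block, and jointly over 16 libraries for differences between the lines. This tested 15787, 15594 and 17090 of 26364 genes, with Benjamini-Hochberg adjustment over all of them and a threshold of 0.05. Replicate variation (biological coefficient of variation) came to 6.45% in Ishikawa and 5.02% in T-47D cells. Printed CPM use TMM over all 16 libraries. Exon lengths (GENCODE on GRCh37) were matched for 22494 genes (85.3%). Alternatives were DESeq2 1.42.0, median-of-ratios scaling, no low-count filter, a minimum of 10 counts throughout, a replicate block, counts divided by 2, only the compared time points, the late Ishikawa libraries as 1 group, and leaving out each library. For simulated 2 h against 0 h comparisons in which 200 genes changed by 1 on the log2 scale, 76.5% (15600 genes tested) and 82.5% (15395) were recovered in Ishikawa and T-47D cells, with 7.27% and 7.82% of calls false. Replicates differed by more than sampling noise (chi-square per gene 3.70 to 11.4), so that none was counted as a duplicate. Likeness between genes is Pearson's r of log2(CPM + 0.1).

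The genes and lists were chosen with earlier results of these data known. Named were the 10 genes, GREB1 and PGR, genes overlapping or next to IGF2, up to 6 genes per pathway list (called in both lines or in the difference between them, by smallest adjusted p) and the 3 genes most like IRS1, IGFBP4 and IGF1R. A gene that this rule took from the lists is not reported here. Of marker lists not named elsewhere, fibroblast markers passed 1 CPM in 2 of 6 in each line, immune markers in 0 of 5 in Ishikawa and 1 of 5 in T-47D cells, and endothelial markers in 1 of 4 and 0 of 4.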

Additional observations from a re-analysis of the deposited data

Results flagged for a closer look

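The following results stood out because the response to E2 differed between the lines in a joint edgeR fit of all 16 libraries. Each value is the log2 fold change in T-47D cells minus that in Ishikawa cells. Among the genes of the axis IGF1R had -0.4 ± 0.1 (SE; adjusted p = 0.0286) at 2 h, -0.46 ± 0.1 (SE; adjusted p = 0.00659) at 4 h and -0.5 ± 0.1 (SE; adjusted p = 0.0021) at 8 h. IRS1 had 0.54 ± 0.11 (SE; adjusted p = 0.00518) at 4 h and 0.46 ± 0.11 (SE; adjusted p = 0.0107) at 8 h. IRS2 had 0.94 ± 0.16 (SE; adjusted p = 0.00113) at 2 h, 1.13 ± 0.16 (SE; adjusted p = 7.72e-05) at 4 h and 1.06 ± 0.16 (SE; adjusted p = 0.00014) at 8 h, with opposite directions in the lines. IGFBP4 had -1.25 ± 0.29 (SE; adjusted p = 0.0126) at 4 h and -1.04 ± 0.29 (SE; adjusted p = 0.0261) at 8 h. IGFBP5 had 0.86 ± 0.16 (SE; adjusted p = 0.0013) at 4 h and 0.85 ± 0.16 (SE; adjusted p = 0.000971) at 8 h. The libraries without which the IGF1R, IRS1 and IGFBP4 values missed the threshold are named above.

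Among the wider pathway STC2 had 1.73 ± 0.07 (SE; adjusted p = 2.23e-11) at 2 h, 1.65 ± 0.07 (SE; adjusted p = 1.28e-11) at 4 h and 2.09 ± 0.07 (SE; adjusted p = 2.94e-13) at 8 h. STC1, a few counts in Ishikawa cells, had 3.02 ± 0.59 (SE; adjusted p = 0.00416) at 2 h, 2.06 ± 0.53 (SE; adjusted p = 0.0239) at 4 h and 2.16 ± 0.52 (SE; adjusted p = 0.00975) at 8 h. The STC1 values missed the threshold without Ishikawa 0 h replicate 1, at 2.00, adjusted p = 0.233, 1.05, adjusted p = 0.47 and 1.14, adjusted p = 0.338, and at 4 h also without Ishikawa 4 h replicate 1, Ishikawa 4 h replicate 2 or T-47D 4 h replicate 1. GRB10 had 0.37 ± 0.08 (SE; adjusted p = 0.0158) at 2 h, 0.43 ± 0.08 (SE; adjusted p = 0.00234) at 4 h and 0.46 ± 0.08 (SE; adjusted p = 0.000929) at 8 h, of which the first was lost without Ishikawa 2 h replicate 1 (0.31, adjusted p = 0.142), Ishikawa 2 h replicate 2 (0.38, adjusted p = 0.0506), T-47D 0 h replicate 1 (0.33, adjusted p = 0.106) or T-47D 2 h replicate 2 (0.33, adjusted p = 0.123). GAB2 had 0.44 ± 0.09 (SE; adjusted p = 0.00707) at 2 h, lost without Ishikawa 2 h replicate 1 (0.37, adjusted p = 0.105), and 0.34 ± 0.09 (SE; adjusted p = 0.0342) at 4 h, lost in 10 of 16 cases of leaving out 1 library (adjusted p up to 0.181, without T-47D 4 h replicate 1). DEPTOR had -0.48 ± 0.13 (SE; adjusted p = 0.0345) at 4 h, lost without Ishikawa 0 h replicate 2 (-0.42, adjusted p = 0.112), Ishikawa 4 h replicate 1 (-0.33, adjusted p = 0.169), T-47D 0 h replicate 1 (-0.42, adjusted p = 0.166) or T-47D 4 h replicate 2 (-0.44, adjusted p = 0.132), and -0.71 ± 0.13 (SE; adjusted p = 0.0012) at 8 h. TRIB1 had 0.61 ± 0.15 (SE; adjusted p = 0.0322) at 2 h, lost in 8 of 16 such cases (adjusted p up to 0.196, without Ishikawa 2 h replicate 2), and TRIB3 had -0.52 ± 0.11 (SE; adjusted p = 0.00672) at 4 h. ADAM9, a protease for which edgeR called no change against 0 h in either line, had -0.25 ± 0.07 (SE; adjusted p = 0.0336) at 8 h, lost in 6 of 16 such cases (adjusted p up to 0.186, without T-47D 8 h replicate 1).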

How the results depend on the processing

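No called direction of the 10 genes was reversed by any alternative. Over alternatives other than leaving out a library, 613 of 641 values of these genes kept their side of the threshold and direction. For the other named genes 654 of 667 did, but the 2 sets were chosen differently. For the 10 genes, differences between the lines and changes from 2 h to 8 h were counted only where the main fit or such an alternative called them. For the other genes only changes called in the main fit were counted, so that no gain of a call could appear. The same choice holds for the values counted below with 1 library left out. For the count of the 10 genes called in Ishikawa cells at 2 h, 2 in the analysis as reported, no filter gave 5, and a minimum of 10 counts, counts divided by 2 and a replicate block each gave 1. All genes called there went from 686 to 1162 without a filter, and at 4 h from 2251 to 4055 with the 4 h and 8 h libraries as 1 group. For 8 h against 2 h in Ishikawa cells 353 genes became 581 with DESeq2, 1070 without a filter and 804 with only the compared time points, and the 10 genes went from 1 to 3 without a filter. Without a filter the difference between the lines at 2 h was called for 4 of them rather than 2. IGFBP4 in Ishikawa cells at 2 h missed the threshold with a minimum of 10 counts (adjusted p = 0.0503), counts divided by 2 (0.0602), only the compared time points (0.0727) and the replicate block (0.0622), and IGFBP2 in T-47D cells at 2 h without a filter (0.0556) and with at least 10 counts (0.0619). With the late Ishikawa libraries as 1 group the uncalled 4 h changes of INSR and IGFBP2 became 0.019 and -0.0012. The replicate numbers did not pair the samples (correlations of deviations -0.219 to 0.0565 in Ishikawa and -0.0704 to 0.116 in T-47D cells), and the block moved no other count of calls by over 1.5 times, with 7 of the 10 genes called in T-47D cells at 8 h with it or without. The longest transcript moved 10 of 20 levels per kilobase by more than the replicate SD, without a change of order. The causes were not tested.

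Leaving out 1 library at a time, the 10 genes called numbered 0 to 2 at 2 h, 3 to 5 at 4 h and 2 to 5 at 8 h in Ishikawa cells, and 1 to 4, 6 to 6 and 6 to 7 in T-47D cells. The lowest came without 2 h replicate 2, 0 h replicate 2 and 0 h replicate 2 in Ishikawa cells, and at 2 h without 0 h replicate 2 in T-47D cells. All genes called ranged from 322 (without 2 h replicate 2) to 1735 (without 0 h replicate 1), from 1002 to 2995 and from 1409 to 4234 in Ishikawa cells, and from 816 to 1798, 1821 to 3853 and 3427 to 4486 in T-47D cells. For 8 h against 2 h the 10 genes gave 0 to 3 and 2 to 4 calls, and all genes 77 to 530 and 1302 to 2845. For the difference between the lines they gave 1 to 2, 4 to 6 and 3 to 5 calls (3 without Ishikawa 8 h replicate 1), and all genes 325 to 521, 658 to 1177 and 1185 to 2419. At baseline 9 were called in each case, among 13304 to 14138 genes. Of 928 values of the 10 genes, 44 lost their call, 13 gained one and 24 changed sign, none of the called. In Ishikawa cells the sign changed for IRS1 (-0.18 to 0.038 at 2 h, -0.16 to 0.058 at 4 h, -0.13 to 0.082 at 8 h), INSR at 4 h (-0.11 to 0.075) and IGFBP2 (-0.047 to 0.11 at 4 h, -0.091 to 0.025 at 8 h). In T-47D cells it changed for IGF2 (-0.43 to 1.93 at 2 h, -0.27 to 2.09 at 8 h), IGFBP6 (-0.51 to 0.18, -0.43 to 0.27 and -0.52 to 0.19) and INSR at 8 h (-0.016 to 0.041), and for the IGF2 baseline difference (-1.51 to 0.84). With 2 libraries per group and few counts, small changes of IGF2, of IGFBP3 in T-47D cells and of IGFBP4 in Ishikawa cells were not detectable at this depth.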
